A study of Homo sapiens with 6 samples.

Results

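The proteasome is the barrel-shaped protease that degrades ubiquitin-tagged proteins in the cytoplasm and nucleus. Its core particle is built from alpha and beta rings, with the protease sites inside the beta rings. A regulatory particle caps the core, and its base unfolds substrates with a ring of ATPases while its lid removes ubiquitin. Alternative activators can dock on the same alpha rings, and dedicated chaperones assemble both particles. Subunits are needed in fixed proportions, and cells in which proteasome activity drops raise many subunit genes together through the transcription factor NFE2L1. Cancer cell lines of the lung, like other dividing cells, express this machinery at high levels.

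The genes described here were chosen by name, as the protein-coding genes whose symbol is PSM, a letter from A to G and a digit, with PSMB8 and PSMB9 left out. The rule found 48 genes of 46427 in the table. They are 17 genes of the core particle (8 alpha and 9 beta), 20 genes of the regulatory particle (6 base ATPases, 3 other base subunits, 8 lid subunits, and 3 base assembly chaperones), 5 activators or inhibitors, and 4 core assembly chaperones. PSMC3IP and PSME3IP1 also matched, but they encode proteins named after a proteasome subunit that they bind and are not subunits, so they are given separately. The rule used no measured value.

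RNA from the human NSCLC cell lines H460, H1299, and A549 was sequenced, each as 1 control and 1 si-MALAT1 library. The si-MALAT1 cells had been transfected with siRNA against the long noncoding RNA MALAT1, whereas the control cells are labelled as not treated, and the study describes both untreated and si-Control cells without naming which was sequenced. Effects of transfection and of MALAT1 knockdown can therefore not be told apart. Each cell line is a single established line, all 3 are labelled NSCLC, and 1 library per cell line and condition leaves no test within a cell line. The read counts of a library summed to between 42506818 and 68515992, of which 0.428% to 0.569% fell on the 48 genes. MALAT1 itself fell in each pair, with log2 fold changes of -2.32, -2.96, and -2.84 in H460, H1299, and A549. Markers of the same cell type differed in level. Epithelial KRT18 and KRT8 were at 122.5 TPM or more and mesenchymal VIM at 446.1 TPM or more in each library, whereas the epithelial adhesion gene CDH1 had 2 to 13 reads in the H460 and H1299 libraries (4693 and 7373 in A549), EPCAM was at 0.776 TPM or less there (3.61 and 8.04 in A549), and the fibroblast collagen gene COL1A1 was at 2.03 TPM or less throughout. The lung gene NAPSA had 12 to 131 reads. The lung lineage gene SFTPB had no reads in any library, and NKX2-1 had none in H460 and A549 and 28 and 30 in H1299. A count of 0 allows up to 3 reads per library. The leukocyte gene PTPRC had 0 reads throughout. PECAM1, also a marker of other cell types, had 8 reads in each H1299 library, 6 in the A549 si-MALAT1 library, and 0 in the others.

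Of the 48 genes, 46 were detected, with a read or more in every library. Their mean count ranged from 428.3 for PSMC3IP to 13372 for PSMB4, with a median of 5697. PSMA8, the testis form of an alpha subunit, had 0 reads in every library. PSMB11, the thymus form of a beta subunit, had 2 reads in the H460 si-MALAT1 library, 2 in the A549 si-MALAT1 library, and 0 in the others.

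Levels were compared between genes as deposited TPM, which is scaled for transcript length. The 14 constitutive core genes summed to 1878.2 TPM in the control and 1974.9 TPM in the si-MALAT1 library of H460. Their sums were 2420.5 and 2305.0 TPM for the H1299 libraries in that order, and 2605.4 and 2363.4 TPM for A549. The 17 base and lid subunit genes summed to 952.0 and 945.7 TPM in H460, 1565.2 and 1555.6 TPM in H1299, and for A549 1369.2 and 1275.5. Core transcripts thus outnumbered those of these 17 base and lid genes in every library. The subunit genes ADRM1 (35.7 to 64.3 TPM) and SEM1 (69.6 to 163.6 TPM) fall outside the naming rule and are not in the sums. The ratio of the sums was 1.97 and 2.09 in H460, 1.55 and 1.48 in H1299, and for A549 1.90 and 1.85. On read counts, which are not scaled for length, the same ratio was 1.05 and 1.10 in H460, 0.854 and 0.807 in H1299, and for A549 1.01 and 0.994. On both scales both H1299 libraries had the lowest ratios and both H460 libraries the highest.

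Although the subunits are assembled in equal numbers, their transcripts differed widely within a library. In the 6 libraries, PSMB2, a non-catalytic beta subunit, had the lowest level of the 14 core genes, between 10.2 and 28.1 TPM. The highest was 18.4 to 30.2 times that level and was PSMB4 in H460, PSMB1 in H1299, and PSMB3 or PSMA7 in A549. Among the base and lid, PSMD12 was lowest in H460 and A549 and PSMD11 in H1299. PSMD4, a ubiquitin receptor, or the lid subunit PSMD8 was highest, at 168.8 to 297.6 TPM. The inhibitor PSMF1 had 6.6 to 12.3 TPM and PSME3 9.2 to 21.8 TPM, whereas the activator pair PSME1 and PSME2 had 78.8 to 182.1 TPM.

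**Figure D1:**
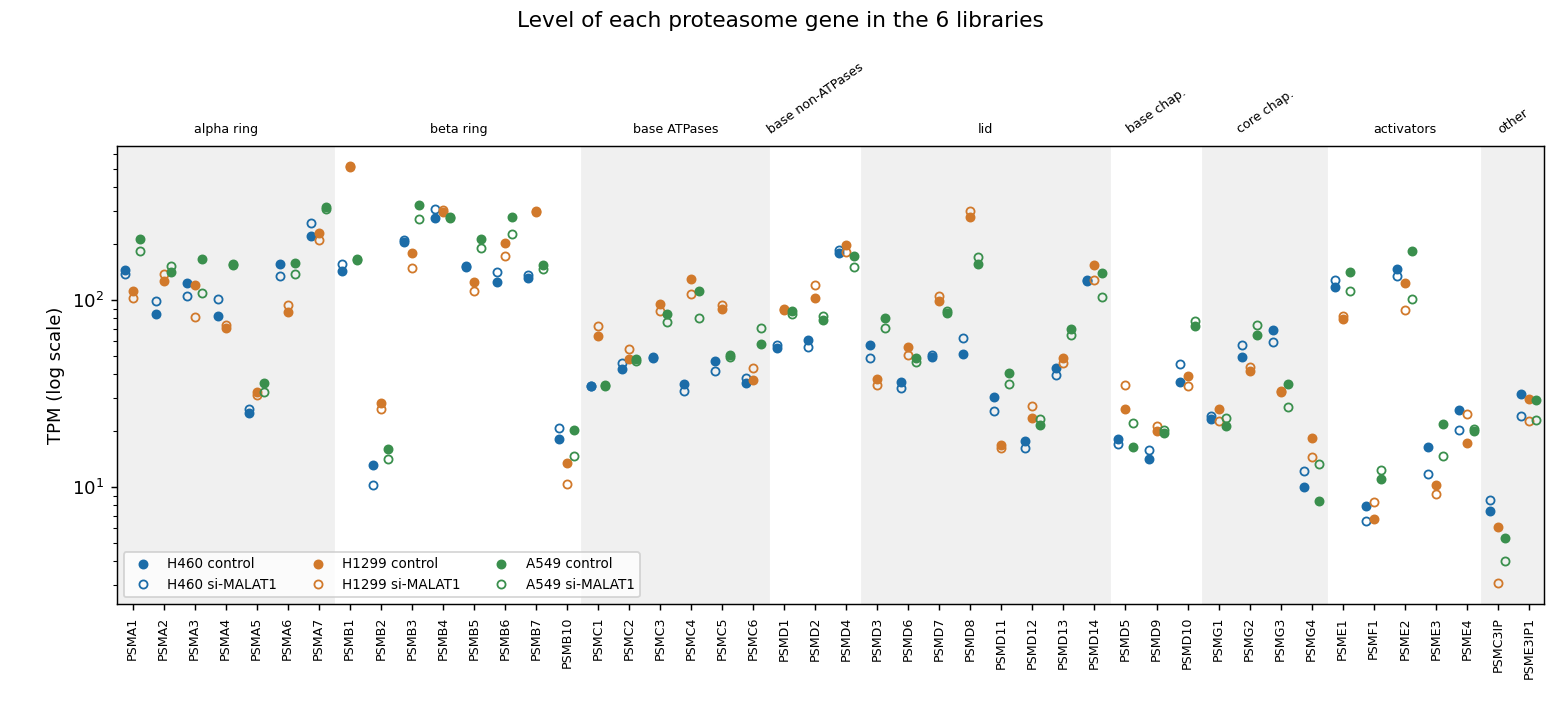
TPM (vertical log axis) of the 46 proteasome genes with reads in every library, grouped by role. Filled points are control libraries and open points si-MALAT1 libraries, with 1 library per point. The open and filled points of a cell line mostly lie close together, PSMB1 and PSMD8 stand high in H1299, and PSMB2 is the lowest of the constitutive core genes.

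The effect of si-MALAT1 was asked first within each pair of libraries. Counts were scaled by RLE size factors, 1 was added, and the log2 difference between si-MALAT1 and control was taken. The changes were small. The limit used below, a fold change of 1.5 (0.585 in log2), was reached by 0 of the 46 genes in H460 and by 2 in each of H1299 and A549, against 19.8%, 23.1%, and 22.9% of the 17834 genes measured. At least 1 cell line passed for 3 genes, 6.52% of the 46, against 43.3% of all genes, and for 23.6% of the 8454 genes with a mean count of at least 1000, a level that 44 of the 46 genes reach. The median size of the change, whatever its direction, was 0.17, 0.16, and 0.13 in H460, H1299, and A549, against 0.19, 0.26, and 0.21 among those abundant genes. For 15 genes the log2 fold change stayed within 0.2 of 0 in the 3 cell lines. In bulk RNA, fewer cells of a kind and less RNA per cell cannot be told apart.

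Direction differed by cell line. In H460, 34 of the 46 genes were above 0 with a median log2 fold change of 0.15, whereas 14 were above 0 in H1299 (median -0.12) and 15 in A549 (median -0.06). These were 73.9%, 30.4%, and 32.6% of the members, against 51.9%, 51.9%, and 50.7% of all genes. The medians of all genes were 0.02, 0.02, and 0.01. On scaled counts the H460 value was the highest of the 3 in 37 of the 46 genes, a count that was not taken over all genes or on TPM. Other scalings shifted the members and all genes in the same direction, with 29 members above 0 in H460 on TMM-scaled counts (63.0%, against 48.3% of all genes) and 24 on deposited TPM (52.2%, against 37.0%). Relative to the median of all genes, the members' median in H460 was higher by 0.13 on scaled counts and by 0.08 on TPM. On TPM 19 members were above 0 in H1299 (41.3%, against 56.7% of all genes), and on counts divided by the table total 21 in A549 (45.7%, against 53.5%). Over the 3 cell lines, 8 genes (17.4%) were above 0 in each and 8 (17.4%) below 0 in each, against 21.4% and 18.8% of all genes. The other 30 changed sign between cell lines, and with 1 library per condition the difference between cell lines was not tested.

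The core particle showed the same split. Of its 15 genes with reads, 12 were above 0 in H460 (median 0.20), and 2 in H1299 (median -0.17) and 2 in A549 (median -0.15). Within the beta ring 7 of 8 genes were above 0 in H460, 0 of 8 in H1299, and 1 of 8 in A549. The regulatory particle was more even, with 16 of 20 genes above 0 in H460 (median 0.14), 10 in H1299 (median -0.02), and 8 in A549 (median -0.02). On TPM the core counts were 10, 4, and 2 in the same order of cell lines, and those of the regulatory particle 9, 11, and 8. Its median in H460 lay above that of all genes by 0.12 on scaled counts and by 0.06 on TPM, where 45.0% of its genes and 37.0% of all genes were above 0.

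PSMB5, the chymotrypsin-like protease subunit, had 9437 (control) and 9689 (si-MALAT1) counts in H460, 7602 and 5986 in H1299, and for A549 7815 and 7801. After scaling, its log2 fold changes were 0.12 (95% interval of counting error 0.08 to 0.16), -0.21 (-0.26 to -0.16), and -0.15 (-0.19 to -0.10). PSMB6, the caspase-like subunit, had 0.33, -0.29, and -0.30 in the same order. The trypsin-like subunit PSMB7 had 0.20, -0.07, and -0.06. All 3 catalytic subunits were above 0 in H460 and below 0 in both other cell lines, though the TPM of PSMB5 in H460 went the other way (control 152.2, si-MALAT1 150.6), and none of them reached a fold change of 1.5. The counting intervals, exact Clopper-Pearson intervals on how a gene's reads divide between the 2 libraries, had a median half-width of 0.05 and leave out the variation between cultures.

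PSMA3, an alpha subunit, was the core gene with the largest mean decrease. It lies on chromosome 14 of GRCh38 from 58244805 to 58272009 on the plus strand, with up to 11 exons. In H460 its counts were 6872 (control) and 6108 (si-MALAT1), in H1299 they were 6590 and 3918, and in A549 5503 and 4045. Scaled log2 fold changes were -0.09 (-0.14 to -0.04), -0.62 (-0.68 to -0.56), and -0.59 (-0.65 to -0.53), so the gene passed a fold change of 1.5 in H1299 and A549 and not in H460. The antisense gene PSMA3-AS1 overlaps PSMA3 over 6645 bases and had 23.4% as many reads, and whether counting used the strand is not stated. PSMB2 was below 0 in the 3 cell lines (-0.23, -0.17, and -0.16), and PSMA2 above 0 in the 3 (0.37, 0.07, and 0.11).

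The activators held the other subunit-related gene past a fold change of 1.5. PSME2 encodes the beta chain of the interferon-inducible activator ring whose alpha chain is PSME1, and the genes lie 4397 bases apart on chromosome 14 (PSME1 from 24136158 to 24138967 on the plus strand, PSME2 from 24143365 to 24146646 on the minus strand). PSME2 counts were 6884 (control) and 6572 (si-MALAT1) in H460, 5753 and 3594 in H1299, and for A549 5145 and 3189, which gave log2 differences of 0.01 (-0.03 to 0.06), -0.55 (-0.61 to -0.49), and -0.83 (-0.90 to -0.77). PSME1 had 0.27, -0.00, and -0.32. The gene pair was thus not shifted by the same amount in any of the cell lines. PSMB10, the interferon-inducible catalytic subunit that can replace PSMB7, had values of 0.33 (0.21 to 0.46), -0.43 (-0.60 to -0.27), and -0.44 (-0.61 to -0.28). Each of these 3 interferon-inducible genes was above 0 in H460 and below 0 in H1299 and A549, although for PSME2 in H460 and PSME1 in H1299 the interval spans 0 and on TPM the directions there turned (147.1 and 135.1 for PSME2, 78.8 and 82.1 for PSME1). PSMB8 and PSMB9, their partners left out by the rule, had 0.20, -0.10, and -0.09, and 0.29, -0.07, and -0.42.

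PSME3 encodes the nuclear activator that docks on the same alpha rings without ATP. For H460 3106 (control) and 2302 (si-MALAT1) counts were found, for H1299 1881 and 1484, and for A549 2444 and 1837. Its log2 fold changes were -0.35, -0.21, and -0.56, below 0 in the 3 cell lines. The nuclear activator PSME4 had -0.18, 0.47, and 0.04, and PSMF1, which encodes the inhibitor PI31, had -0.12, 0.25, and 0.13, so the activators and inhibitor shared no direction.

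In the regulatory particle, PSMD5 and PSMD8 had the largest mean increases among genes above 0 in the 3 cell lines. PSMD5, a chaperone of base assembly, had log2 fold changes of 0.04, 0.35, and 0.44, though its TPM in H460 was 18.1 and 16.9, and PSMD8, a lid subunit, 0.42, 0.04, and 0.12. The lid subunits PSMD3 (-0.09, -0.18, and -0.18) and PSMD11 (-0.11, -0.13, and -0.18) were below 0 in each cell line. PSMD14, the lid protease that cuts ubiquitin from substrates, had 0.15, -0.33, and -0.42. Among the core assembly chaperones, PSMG3 was below 0 in each cell line (-0.09, -0.26, and -0.34).

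PSMC3IP, a meiotic recombination cofactor and not a subunit, had the largest single change and the fewest reads of the 46 genes with reads in each library. Its counts were 613 and 727 in H460, 505 and 225 in H1299, and for A549 266 and 234, with log2 differences of 0.33 (0.17 to 0.49), -1.03 (-1.27 to -0.81), and -0.33 (-0.59 to -0.07). MLX overlaps it on the opposite strand by 894 bases and had 505% as many reads. PSME3IP1 had -0.12, -0.47, and -0.30.

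**Figure D2:**
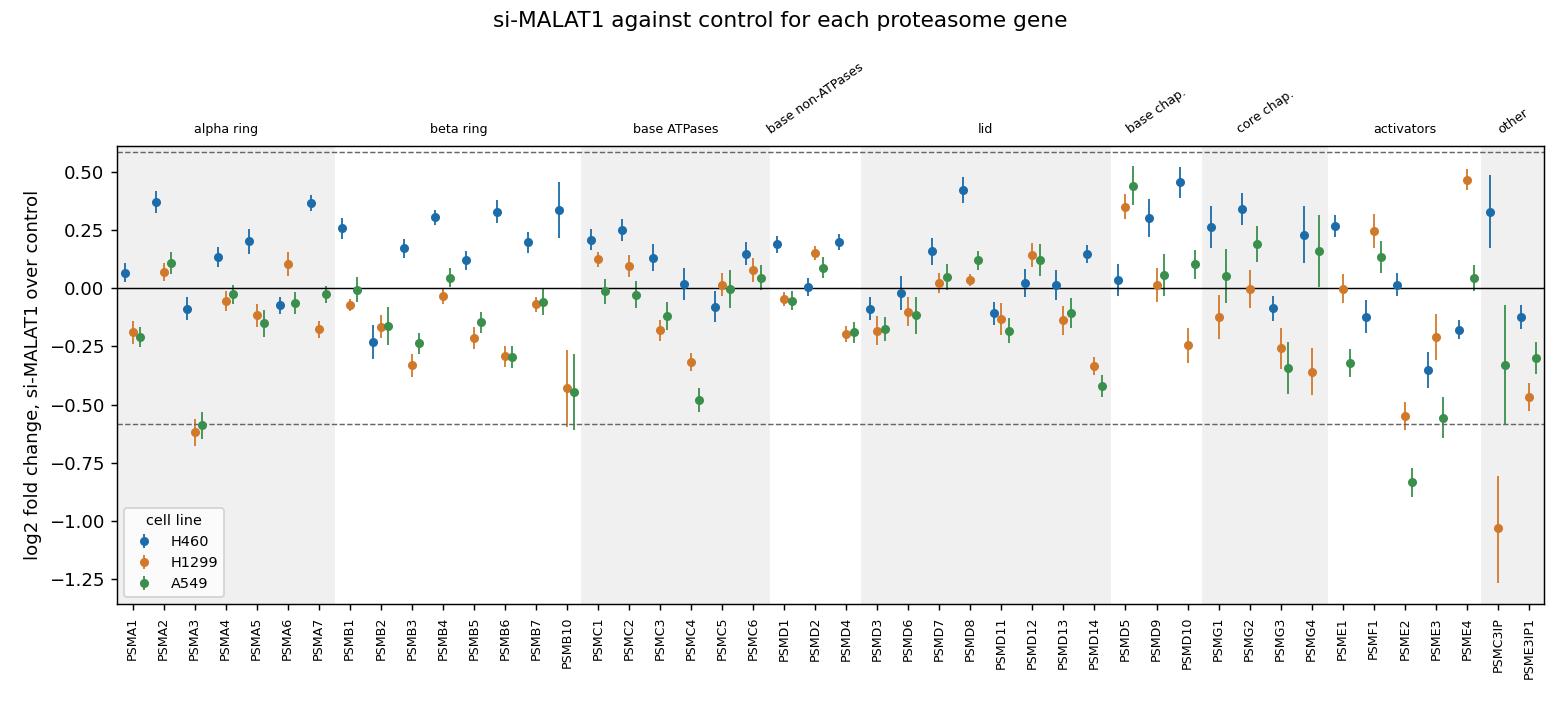
Log2 fold change of si-MALAT1 over control (vertical axis) for the 46 genes by role, with the 95% counting interval as a bar and 1 point per cell line. Dashed lines mark a fold change of 1.5. PSMA3 in H1299 and A549, PSME2 in A549, and PSMC3IP in H1299 lie past the lower line, and no point lies past the upper line.

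The cell lines were then used as the 3 replicates of the treatment. In edgeR's quasi-likelihood test with cell line as the block and Benjamini-Hochberg adjustment over 19122 genes, 0 of the 46 genes passed an adjusted p of 0.05, against 0.00523% of all genes, which is 1 gene. That gene was MALAT1, the target of the siRNA (edgeR adjusted p = 0.0381). At an unadjusted p under 0.05 the test had 4 of the 46 genes (8.70%), against 15% of all genes. These were PSMA3 (log2 fold change -0.45 ± 0.14 SE, adjusted p = 0.234), PSME3 (-0.39 ± 0.12 SE, adjusted p = 0.216), PSME2 (-0.47 ± 0.18 SE, adjusted p = 0.294), and PSME3IP1 (-0.31 ± 0.12 SE, adjusted p = 0.291). DESeq2 called 10.2% of the 13117 genes it gave an adjusted p, and 0 of the 46. Their smallest adjusted p was 0.066, that of PSME3. At an unadjusted p under 0.05 DESeq2 had 5 of the proteasome genes. Its background, the 31353 genes with a read, included genes with low counts that edgeR's 19122 left out. The share of proteasome genes was therefore not compared with it. Standard errors of the fitted log2 fold changes lay between 0.10 and 0.28, so changes of the size seen in most of these genes were not detectable with 3 pairs.

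Genes around the proteasome were given the same test. Of 31 partner genes, edgeR's test called 0 after adjustment. An unadjusted p under 0.05 was found for 5 of the 31, against 2863 of 19122 genes (15%), so the share was near the background. The subunit gene ADRM1, a ubiquitin receptor, had log2 fold changes of -0.13, -0.24, and -0.50, the small lid subunit gene SEM1 0.48, -0.08, and 0.45, and the assembly factor POMP 0.21, 0.12, and 0.13. The genes that bind or feed the proteasome (6 ubiquitin enzymes bound to it, 9 shuttle factors and segregase genes, and 6 ubiquitin or activating enzyme genes) included none past a fold change of 1.5. NFE2L1 had -0.36 in H460, 0.38 in H1299, and 0.05 in A549. Its small MAF partners were lower in the 3 cell lines for 2 of 3 genes, with MAFK at -1.01, -0.53, and -0.84 (edgeR adjusted p = 0.0866) and MAFF at -1.42, -0.31, and -1.21 (edgeR adjusted p = 0.173), and MAFG at -0.39, 0.17, and -0.19. In DESeq2, MAFK and MAFF had adjusted p of 5.89e-06 and 0.0395.

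NFE2L1 binds promoters with a small MAF partner at antioxidant response elements, so the promoters of the members were read for that motif. RefSeq promoter windows on GRCh38.p14, from 250 bases before to 50 after the start, were found for 42 of the 48 genes. The core letters TGACNNNGC, on either strand, occurred in 12 of the 42 windows (28.6%), against 14.4% of 15515 protein-coding promoters and 14.8% of those of genes tested. The windows below show the match in capitals with the bases around it, read on the gene's strand. They are given for PSMB3 of the beta ring, for PSMC4 and PSMD3, which are among the genes that differ most between cell lines below, for the chaperone gene PSMD5, and for the pair PSME1 and PSME2. The capitals of PSMC4 are the motif on the opposite strand.
PSMB3, chr17:38752621-38752661, plus strand: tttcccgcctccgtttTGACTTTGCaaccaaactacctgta
PSMC4, chr19:39971176-39971214, plus strand: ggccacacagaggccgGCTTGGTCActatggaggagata
PSMD3, chr17:39980754-39980794, plus strand: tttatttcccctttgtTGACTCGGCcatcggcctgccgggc
PSMD5, chr9:120843032-120843072, minus strand: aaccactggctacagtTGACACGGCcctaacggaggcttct
PSME1, chr14:24136092-24136132, plus strand: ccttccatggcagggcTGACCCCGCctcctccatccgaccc
PSME2, chr14:24146761-24146801, minus strand: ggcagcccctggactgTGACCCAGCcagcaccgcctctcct

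The other genes with the motif were PSMD1, PSMD9, PSMD12, PSME4, PSMG1, and PSMG2. The 12 genes with a match had medians of 0.10, -0.02, and -0.00 in H460, H1299, and A549 on the log2 fold change scale, and the 28 measured genes without a match 0.13, -0.12, and -0.08. PSMD5 and PSME2, both with a match, were the highest and the lowest of the 12 in A549, at 0.44 and -0.83. The ETS letters CCGGAAG were in 33.3% of member windows, against 14.4% of all and 18.3% of tested promoters, and the CCAAT box in 47.6% against 36.5% of both. GC boxes (GGGCGG) were in 66.7% against 59.1% and 69%, and E-boxes (CACGTG) in 9.52% against 8.95% and 10.0%. A match is a run of letters and not a measured binding site.

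**Figure D3:**
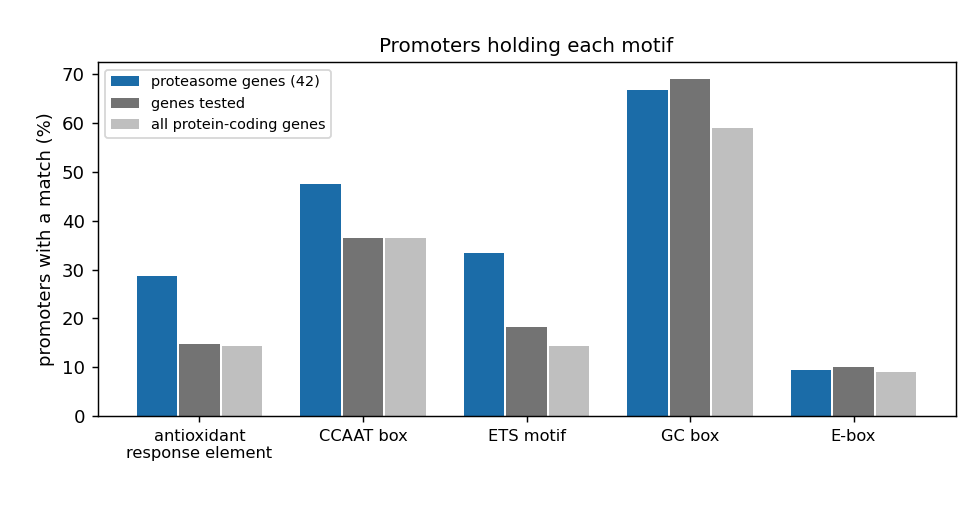
Share of promoter windows (percent, bars from 0) that hold each motif on either strand, for the 42 proteasome genes with a RefSeq window, for genes tested, and for all protein-coding genes. The antioxidant response element stands at 28.6% against 14.8% and 14.4%, and the ETS motif at 33.3% against 18.3% and 14.4%.

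In the 3' UTRs the 7-base words TGAATCA and ATGAATC were counted, a choice made with earlier results of these data known. Only PSMA5, an alpha subunit, held either word among the 48 genes (2.08%), against 17.7% of 12548 protein-coding genes. The members' 3' UTRs were short, with a median of 381 bases against 1332.5. The PSMA5 site is shown with the word in capitals, on GRCh38.
PSMA5, chr1:109400229-109400255, minus strand: gttgtgtctcTGAATCAcatgcatttc
The log2 fold changes of PSMA5 were 0.20, -0.12, and -0.15.

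The genes differed more between cell lines than between si-MALAT1 and control libraries. In the same edgeR fit, the cell line coefficients were tested together, with the control and si-MALAT1 libraries of a cell line as its 2 libraries. Of the 46 genes, 30 passed an adjusted p of 0.05 (65.2%), so the share was near the 64.3% of all genes. It was below the 74.9% of the 8582 genes with a mean count of at least 1000, a level that 44 of the 46 reach. The size of the differences was smaller. The largest fitted difference between any pair of cell lines had a median of 0.66 on the log2 scale, against 1.19 for all genes and 0.86 for genes with a mean count of at least 1000, and 10 genes (21.7%) reached 2-fold, against 57.8% and 42%. Without H1299, 14 of the 46 genes passed (30.4%), against 44.3% of all genes, so the share was then below the background.

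H460 was placed differently by the 2 kinds of value. For the median member, TPM put H1299 0.35 and A549 0.29 higher against H460 on the log2 scale than the fit on counts did, whereas A549 against H1299 moved by -0.06. The direction against H460 is therefore given with both scales where they part, and the comparison of A549 with H1299, in which 41 of 46 genes had the same sign on both scales, comes first.

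The direction of the difference between A549 and H1299 varied by role, which was not tested. The alpha subunit genes were higher in A549 than in H1299 for 7 of 7 genes on both scales. Their median fitted log2 difference was 0.56, against -0.03 for all genes. PSMA1 (0.94), PSMA6 (0.78), and PSMA4 (0.64) were the 3 of them called in the test over the 3 cell lines. That share of 42.9% was below the 64.3% of all genes. The base ATPases were higher in A549 for 1 of 6 genes on both scales, with a median difference of -0.20, and that gene was PSMC6 (0.61). PSMC5 (-0.84) and PSMC1 (-0.83) differed most in the other direction. The activators and inhibitor were higher in A549 for 5 of 5 genes in the fit and 4 of 5 on TPM, led by PSME3 (0.95), PSME1 (0.71), and PSMF1 (0.69), and PSME2 (0.45) passed the test as well.

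The beta ring was split between cell lines. PSMB1, a non-catalytic beta subunit on chromosome 6 (170535120 to 170553307), had 142.9 (control) and 155.4 TPM (si-MALAT1) in H460, 517.7 and 515.1 TPM in H1299, and for A549 166.4 and 164.4. H1299 stood apart from both other lines, and the fitted log2 differences were 1.44 ± 0.15 SE over H460 and -1.58 ± 0.15 SE for A549 against H1299 (edgeR adjusted p = 0.000378). PSMB7 and PSMB2 were also highest in H1299, with log2 differences of 0.80 and 0.88 against H460, and of -0.93 and -0.79 for A549 against H1299. In PSMB5 and PSMB3 H1299 was instead lowest, by 0.82 and 0.91 against A549. So the catalytic subunits PSMB5 and PSMB7 had opposite orders in H1299 and A549, with PSMB5 at 124.3 and 111.8 TPM in H1299 and 211.8 and 190.0 in A549, and PSMB7 at 298.2 and 297.2 in H1299 and 153.8 and 146.5 in A549. PSMB6 did not pass the test (adjusted p = 0.0565). PSMB10 was lowest in H1299, at -1.08 against H460, and A549 was 0.59 above it (adjusted p = 0.0192).

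In the regulatory particle PSMD8 and PSMC4 had the largest differences. PSMD8, on chromosome 19 from 38374550 to 38383824, had 51.4 and 62.6 TPM in H460, 277.2 and 297.6 TPM in H1299, and for A549 156.7 and 168.8. The 3 cell lines did not overlap, and H1299 was 1.99 ± 0.16 SE and A549 1.23 ± 0.15 SE above H460 in the fit (adjusted p = 0.000354). PSMC4, a base ATPase on chromosome 19 from 39971005 to 39981764, had 35.5 and 32.7 TPM in H460, 129.7 and 108.0 TPM in H1299, and for A549 112.0 and 79.7, with fitted log2 differences of 1.45 ± 0.17 SE and 1.18 ± 0.16 SE over H460 (adjusted p = 0.00132). Both genes were lowest in H460. The lid genes PSMD11 and PSMD3 on chromosome 17 were lowest in H1299 instead, by 1.26 ± 0.13 SE and 1.10 ± 0.13 SE against A549 (adjusted p = 0.000771 and 0.00143). PSMD2, PSMD7, and PSMC3 passed with H1299 highest and H460 lowest on both scales, whereas PSMD10 and PSMD13 passed with A549 highest and PSMD5 with H1299 highest.

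PSMG3, a chaperone of alpha ring assembly on chromosome 7 from 1567332 to 1570490, ran the other way. It had 69.3 and 59.8 TPM in H460, 32.8 and 32.1 TPM in H1299, and for A549 35.4 and 26.7, so that both H460 libraries were above the other 4. Fitted log2 differences were -1.53 ± 0.14 SE for H1299 and -1.64 ± 0.14 SE for A549 against H460 (adjusted p = 0.000228). PSMG2 passed with A549 0.75 above H1299. PSMC3IP, named after a subunit, had fitted log2 differences of -1.19 for H1299 and -1.06 for A549 against H460 (adjusted p = 0.033). Those of PSME3IP1 were -0.64 and -0.46 (adjusted p = 0.0175), though on TPM they were -0.09 and -0.10.

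Since several of these genes lie on the same chromosomes, each was set beside its neighbours, the 10 tested genes on either side with other members left out. This comparison was chosen after the values were seen. For PSMD8 the median difference of 20 neighbours between H1299 and H460 was 2.002, beside 1.99 for the gene, and 18 of the 20 had its sign. The 20 neighbours of PSMC4 had a median of 1.48, beside 1.45, and 20 of 20 had its sign. PSMB1, near the end of chromosome 6, had 12 neighbours with a median of 0.92, beside 1.44, and 11 had its sign. Between A549 and H1299 the neighbours of PSMD11 had a median of 1.35, beside 1.26, and those of PSMD3 1.20, beside 1.10. For the alpha subunit genes PSMA1, PSMA6, and PSMA4 the neighbours had 0.87, 0.39, and 1.16, beside 0.94, 0.78, and 0.64. Those of PSMA5 had -0.53, beside 0.17.

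Over the 46 genes, Pearson's r between a gene's difference and its neighbours' median was 0.695 for H1299 against H460 (Spearman's rho 0.664), 0.560 for A549 against H460 (rho 0.513), and 0.792 for A549 against H1299 (rho 0.779). Over the 8576 genes with a mean count of at least 1000 and enough neighbours, r was 0.361, 0.228, and 0.368 (rho 0.495, 0.397, and 0.516). No gene was left out of the neighbours there, whereas other members were left out for the 46 genes. These are descriptions across genes of the same 6 libraries, in which neighbouring members share neighbours. Not every member followed its surroundings. For H1299 against H460, PSMG3 stood at -1.53 beside neighbours at 0.09, and PSMG2 at -0.68 beside neighbours at 1.27.

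**Figure D4:**
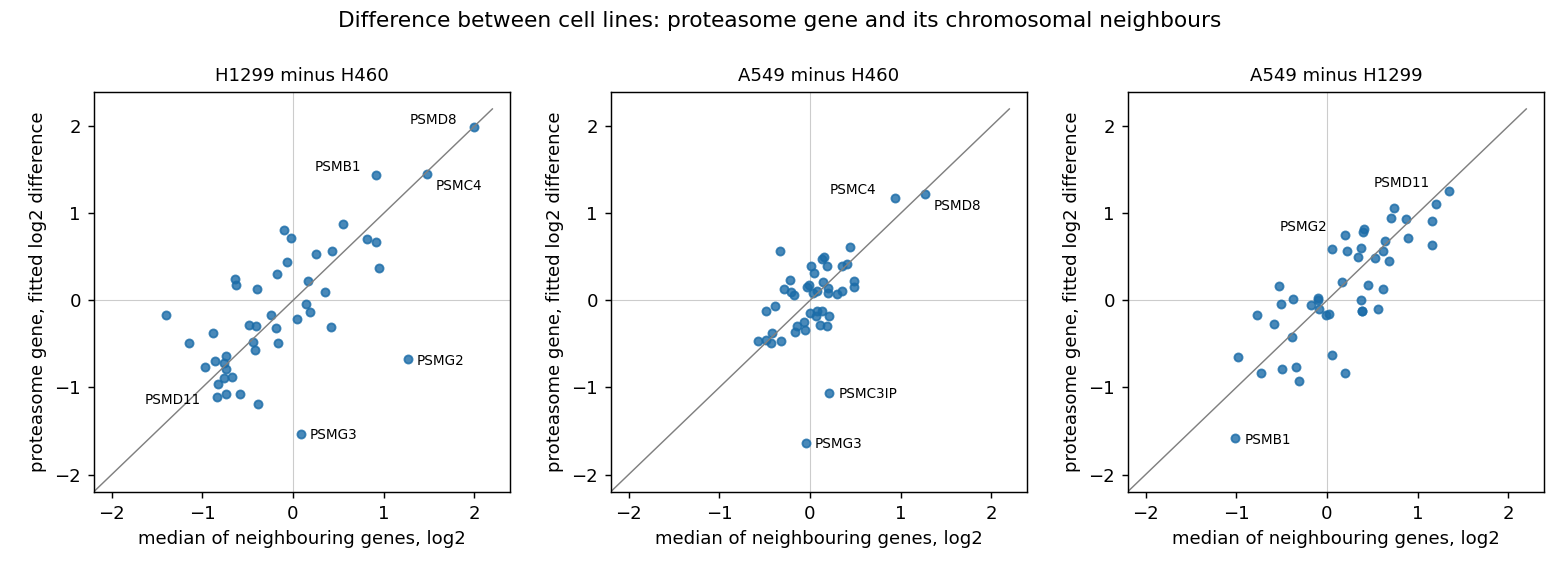
Fitted log2 difference between 2 cell lines for each of the 46 genes (vertical axis) against the median of its neighbouring tested genes (horizontal axis), with the diagonal marking equal values. PSMD8 and PSMC4 lie on the diagonal at 1.99 and 1.45 for H1299 against H460, whereas PSMG3 and PSMG2 lie well below it.

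Processed pseudogenes could share reads with their parent genes. Of 42 annotated pseudogenes of members, PSMC1P1 had 5.96% of the reads of PSMC1 and each of the others under 1% of its parent. Genes on the opposite strand overlapped several members, and those with the most reads beside the member, apart from MLX at PSMC3IP and DHFRP1, a pseudogene with 9338 reads at PSMA8, which had 0, were SPIRE1 at PSMG2 (108% of its reads), FTSJ3 at PSMC5 (89.0%), and SLC22A23 at PSMG4 (64.1%).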

How the data were processed

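Labels of the samples gave the cell line and treatment of the 6 libraries. After trimming, the authors used HISAT2 2.1.0 for alignment to hg38 and StringTie with an NCBI annotation for gene abundances, and deposited read counts that are not normalized, FPKM, and TPM. The methods and the processing notes give different StringTie versions. The deposited FPKM was not tested. Another 18 columns of per-sample values were not used. Counts were tested with edgeR 4.0.16 (quasi-likelihood, TMM, filterByExpr, cell line as block), which left 2 residual degrees of freedom, and with DESeq2 1.42.0 as the alternative, in R 4.3.3. The pairing comes from the shared cell line. Within a cell line, counts were scaled by RLE size factors, 1 was added, and genes with a read in each library were kept. Depth was 42506818 to 68515992 counts per library, and intervals cover counting error only. Motifs and words were matched to RefSeq promoters on GRCh38.p14 and to 3' UTRs of GENCODE canonical transcripts. The paired test was checked on simulated counts with 4-fold changes in 200 genes, a size that no proteasome gene reached. The counting intervals were also checked on simulated counts, and the test between cell lines was not. Named in full are the catalytic and interferon-inducible members, those past a fold change of 1.5 or called in a test, the 2 with the largest mean change of each sign per class, and the 8 with the largest difference between cell lines. PSMD14, PSME4, PSMF1, and PSMA5 were added after their values were seen. The values of 1 partner gene are not reported here. Members and lists were chosen with earlier results of these data known. Other steps used Python 3.11.15 with scipy 1.17.1, pandas 2.3.3, numpy 2.4.6, and matplotlib 3.10.9.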

Additional observations from a re-analysis of the deposited data

Results flagged for a closer look

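Cell lines moved in opposite directions after si-MALAT1 in several groups and genes, and none of these differences was tested, since each cell line had 1 library per condition. The core particle median was higher in H460 than in H1299 by 0.36 on the log2 scale (0.17 on deposited TPM, where the medians were 0.07 and -0.10). The core assembly chaperones differed by 0.44 between the same cell lines (0.24 on TPM), and the interferon-inducible members by 0.71 between H460 and A549 (0.56 on TPM). Among single genes with opposite changes of at least 0.3, PSMB10 was higher in H460 than in A549 by 0.78, PSMC3IP higher in H460 than in H1299 by 1.36, and NFE2L1 higher in H1299 than in H460 by 0.74, and on TPM the differences were 0.62, 0.98, and 0.92. With 3 cell lines, no sample was tested as an outlier.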

How the results depend on the processing

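The paired test called 0 of the proteasome genes under RLE factors, without the filter, with DESeq2, without the cell line as a replicate block, and without each cell line, whereas its calls among all genes went from 1 to 0 without the block or the filter, 163 without H460, 0 without H1299 or A549, and 1333 with DESeq2. At an unadjusted p under 0.05 it had 0 proteasome genes without the replicate block, where few of all genes passed that limit either. Without H460 it had 9 of the 46, while the share of all genes stayed near the 15% of the main test. The proteasome share was thus slightly above the background without H460, and in the main test it was below it (8.70%). Both shares rest on a few genes, and their difference from the background was not tested. The count called between cell lines ranged from 14 to 27 when a cell line was left out, and was 14 without H1299. These were 58.7% of the genes without H460, 30.4% without H1299, and 47.8% without A549, against 54.7%, 44.3%, and 50.4% of all genes. Under the other settings the count was 25 to 37, beside the main 30. The shares were 65.2% with RLE factors, 57.4% without the filter, 78.7% with DESeq2, and 54.3% without the treatment term. All genes had 64.3%, 39.5%, 42.4%, and 57.4% in that order. Without the filter and with DESeq2, all genes were the 31353 with a read, so how the members compared with all genes depended on the setting. The number past a fold change of 1.5 was 3 or 4 in each setting, but the genes and cell lines were not always the same. PSMA3 fell short of the limit in H1299 on deposited TPM (-0.55). It also fell short in A549 on counts divided by the table total (-0.56). On TPM the core assembly chaperone PSMG4 passed upward in A549 (0.59). Without the filter PSMB11 was added, which had 0 or 2 reads per library. The median over genes of the mean log2 fold change, -0.02, ranged from -0.10 to 0.03 when a cell line was left out. With 3 pairs and 1 library per condition, small shared changes were not detectable, and the cause of the shift between TPM and scaled counts was not tested.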
